A study of Mus musculus with 12 samples.

Results

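Regulatory T cells (Treg) and conventional CD4+ T cells (Tcon) of mouse spleen were compared gene by gene. Members of the comparison were the 6 spleen libraries, of 12 in the series, and the 9784 genes that the tables of both cell types list, of 10507 listed in either. All mice carried B6.Cg-Foxp3tm2Tch/J, an allele in which GFP is expressed from the Foxp3 locus (FOXP3-IRES-GFP), so both cell types come from reporter mice. The Treg libraries are labelled CD4+CD25+FOXP3+ Treg and the Tcon libraries CD4+ Tcon, and all are described as naive primary T cells. Each spleen library number is shared by 1 Treg and 1 Tcon library. Pair 4 came from mice given vehicle, labelled DMSO, and pairs 5 and 6 from mice given 25 mg/kg of the stapled peptide SAH-FOXP3(229-259)C, an alpha-helical peptide named for FOXP3 residues, by intraperitoneal injection once a day for 2 days. No library is from an untreated mouse, and the labels do not say whether the libraries came from separate mice or pools. The p-values thus cover the variation seen among these libraries alone, part of which may be technical.

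Treg hold back immune responses and depend on FOXP3, a forkhead transcription factor, on CD25, the alpha chain of the interleukin-2 receptor, and on the inhibitory receptor CTLA4. They make little interleukin-2 themselves and respond to that made by other T cells through STAT5. Naive Tcon circulate through spleen and lymph node and are marked by interleukin-7 receptor, the homing receptor CCR7, and the transcription factors TCF1 and LEF1.

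The 6 libraries held an estimated 39422163 to 48888678 reads in listed genes, rebuilt from the spacing of low values because the tables give no counts. Their log2 values were correlated at 0.9949 to 0.9968 among Treg, 0.9938 to 0.9964 among Tcon and 0.9404 to 0.9464 between the cell types. T cell markers were present in every library. Cd4 was at 752, 718 and 733 CPM in the Treg and 1010.2, 947 and 1005 CPM in the Tcon libraries, and the T cell receptor chain Cd3e at 417, 409 and 388 CPM in the Treg and 343, 324 and 324 CPM in the Tcon libraries. Of 13 markers of CD8 and natural killer cells, 6 were listed in Treg and 8 in Tcon, with Cd8a, Ncr1 and Gzma in neither table. Their summed level was 41.9 to 43.0 CPM in spleen Treg and 108 to 138 CPM in spleen Tcon. Of 18 B cell markers 8 and 6 were listed, Ms4a1 and Pax5 in neither table, with sums of 103 to 145 CPM in Treg against 37.8 to 62.0 CPM in Tcon. Of 21 myeloid and dendritic markers 8 and 6 were listed, Cd14, S100a8 and S100a9 in neither, with sums of 85.1 to 133 CPM in Treg against 57.6 to 60.0 CPM in Tcon. Of 10 plasma cell markers 2 were listed in each table, Jchain and Xbp1, with sums of 173 to 216 CPM in Treg against 143 to 221 CPM in Tcon. Jchain had a mean of 99.9 CPM in Treg and 59.4 CPM in Tcon. Of 14 red cell and platelet markers 3 and 2 were listed and no haemoglobin gene, with sums of 19.4, 13.8 and 144 CPM in Treg against 6.45, 6.05 and 52.6 CPM in Tcon of pairs 4, 5 and 6. Pair 6 stood apart in both cell types. In bulk libraries, fewer cells of a type and less RNA per cell cannot be told apart.

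The starts of 4 genes named in the comparison are shown as the 250 bases before the RefSeq start (GRCm38.p6, plus strand), 5′ to 3′, to give the regulatory sequence beside the levels. These are Foxp3 (chrX:7579426-7579675, 1 of 2 starts in the table), Il2ra (chr2:11642542-11642791) and Ctla4 (chr1:60908775-60909024), which were higher in Treg, and Dapl1 (chr2:59484403-59484652), which was lower. Capitals mark 2 motifs that do not overlap each other and were searched on both strands. They are the forkhead core, TGTTTAC, and the sequence of a TATA box, TATAAA.
Foxp3: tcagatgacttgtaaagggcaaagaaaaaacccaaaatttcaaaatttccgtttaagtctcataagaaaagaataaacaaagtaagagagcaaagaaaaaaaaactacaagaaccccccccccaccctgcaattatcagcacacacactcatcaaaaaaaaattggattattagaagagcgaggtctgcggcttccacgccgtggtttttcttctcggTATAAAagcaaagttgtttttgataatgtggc
Il2ra: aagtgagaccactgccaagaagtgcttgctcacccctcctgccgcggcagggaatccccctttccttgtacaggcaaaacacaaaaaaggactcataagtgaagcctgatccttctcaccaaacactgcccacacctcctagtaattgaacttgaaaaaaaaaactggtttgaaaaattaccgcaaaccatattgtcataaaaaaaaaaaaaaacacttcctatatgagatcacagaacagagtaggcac
Ctla4: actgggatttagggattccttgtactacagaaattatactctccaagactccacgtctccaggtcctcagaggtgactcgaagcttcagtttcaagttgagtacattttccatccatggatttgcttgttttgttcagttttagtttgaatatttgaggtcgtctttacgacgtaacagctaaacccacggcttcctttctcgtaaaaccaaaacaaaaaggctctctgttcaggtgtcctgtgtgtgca
Dapl1: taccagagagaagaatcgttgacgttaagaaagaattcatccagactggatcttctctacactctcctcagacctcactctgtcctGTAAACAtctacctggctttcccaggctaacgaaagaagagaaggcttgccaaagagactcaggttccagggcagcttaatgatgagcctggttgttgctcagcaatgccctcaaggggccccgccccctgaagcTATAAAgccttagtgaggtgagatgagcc
Foxp3 and Dapl1 hold the TATA box sequence in this window, and Dapl1 alone of the 4 also holds the forkhead core. The window of Igfbp4, also lower in Treg, was searched but is not printed. It holds the TATA box sequence and no forkhead core. A RefSeq window was found for 7584 of the 9784 genes. The forkhead core was in 3.09% of all 27025 RefSeq windows and in 2.04% of these, in 2.76% of 398 windows of genes called and over 2-fold higher in Treg, and in 2.14% of 140 windows of genes called and over 2-fold lower. The TATA box sequence was in 13.0% of all windows and in 5.58%, 6.53% and 7.14% of the other sets in the same order. Another sequence searched, the ETS core CCGGAAG, was in 7.05% of all windows and in 16.2%, 7.04% and 8.57% of those sets. Ikzf2 and Pde3b were not found in the RefSeq table.

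Treg and Tcon of spleen differed in most genes, mostly by little. Values are CPM as deposited, and differences are Treg minus Tcon on the log2(CPM + 1) scale, after the Treg values were divided by 1.0632, the median ratio between the separately normalized tables. Of 9784 genes, 6861 (70.1%) were called at an adjusted p below 0.05 (limma, paired by library number, Benjamini-Hochberg adjustment over all genes). In Treg 3437 were higher (35.1%) and 3424 lower (35.0%), a balance that the rescaling sets. Without rescaling, 4283 were higher and 2623 lower (62.0% of calls higher, against 50.1%), and with quantile normalization 2937 were higher and 3997 lower (42.4%). Past 2-fold, 542 genes were higher (5.54%) and 184 lower (1.88%). All 726 of these kept their call and direction in each of the 3 fits that left out a pair. Those fits reuse most of the same libraries and borrow most of their spread from other genes. A gene past 2-fold could hardly lose its call in them, so this is a weak check. The sign was the same in 3 of 3 pairs for 7944 genes (81.2%). Levels in the 3 Treg and 3 Tcon libraries did not overlap, after rescaling, for 3345 genes in each direction (34.2% each).

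**Figure D1:**
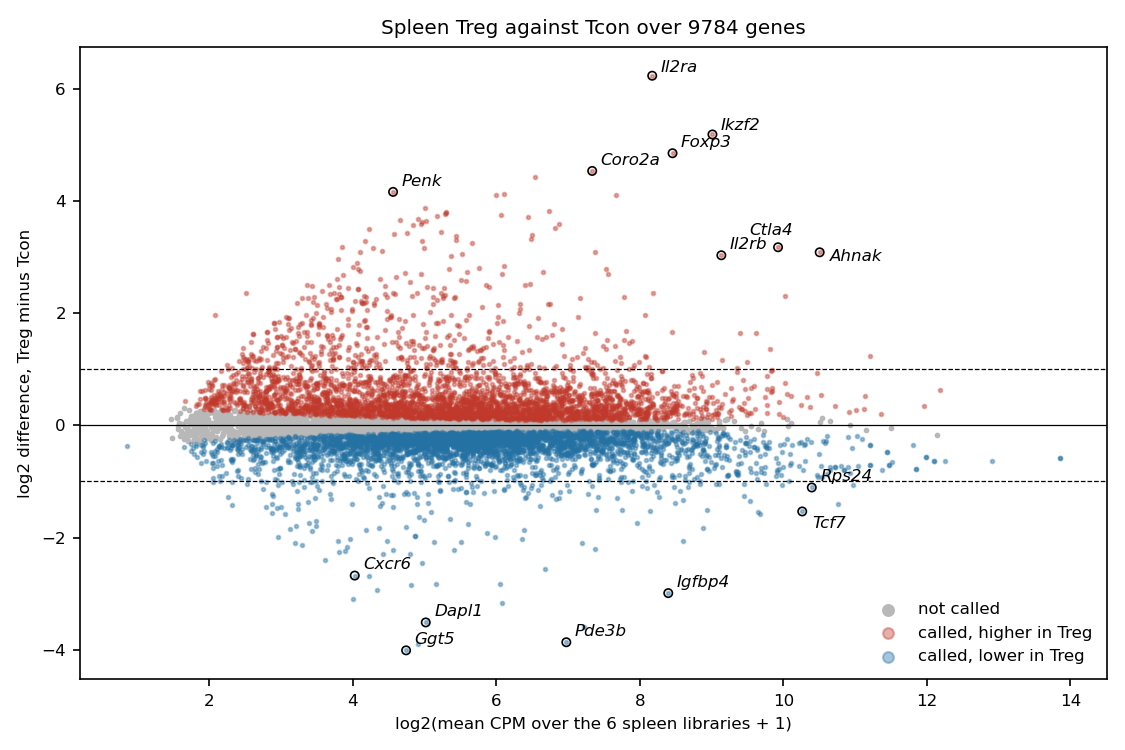
Log2 difference between spleen Treg and Tcon (vertical axis) against log2 mean CPM over the 6 libraries (horizontal axis) for 9784 genes, 1 point each; red and blue points were called higher and lower in Treg, grey points were not called, and dashed lines mark 2-fold. Il2ra lies highest at 6.24, and 542 called genes lie above the upper dashed line against 184 below the lower one.

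The 4 markers of Treg were all higher in Treg. Il2ra and Foxp3 are part of the labelled definition of these cells (CD25+FOXP3+), so their difference checks the labels and is not a finding. Foxp3 (chromosome X, 7573644 to 7595245 in GRCm38) was at 669, 655 and 715 CPM in the Treg and 19.6, 21.1 and 22.6 CPM in the Tcon libraries. The difference was 4.86 (95% interval 4.76 to 4.95), or 28.98-fold, with a limma adjusted p = 4.19e-17. Il2ra (chromosome 2, 11642807 to 11693193), the gene of CD25, was at 589, 597 and 520.4 CPM in the Treg and 6.90, 4.66 and 6.94 CPM in the Tcon libraries, a difference of 6.24 (6.04 to 6.44). In both genes all Treg libraries stood far above all Tcon libraries, and Foxp3 was still read at 19.6 to 22.6 CPM in Tcon. Ikzf2 (chromosome 1, 69531214 to 69687245), the gene of the Ikaros family factor Helios, was at 976, 1112 and 927 CPM in the Treg and 23.5, 33.6 and 19.3 CPM in the Tcon libraries, a difference of 5.19 (5.04 to 5.34). Ctla4 (chromosome 1, 60887000 to 60915832) was at 1811, 1799 and 1676 CPM in the Treg and 195, 194 and 159 CPM in the Tcon libraries, a difference of 3.18 (3.07 to 3.29). Its Tcon libraries held 159 CPM or more, so of the 4 markers Ctla4 had the smallest ratio, 9.06-fold.

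Of genes not used to define the cells, Ikzf2 led, followed by Coro2a, which encodes an actin-binding coronin. Coro2a was at 309, 303 and 317 CPM in the Treg and 11.6, 10.7 and 12.5 CPM in the Tcon libraries, 23.3-fold higher in Treg (difference 4.54, 4.44 to 4.64, limma adjusted p = 1.65e-16). Dst, which encodes the cytolinker dystonin, was at 180.2, 182 and 169.8 CPM in the Treg and 6.57, 7.76 and 5.98 CPM in the Tcon libraries (difference 4.44). Penk, which encodes the opioid precursor proenkephalin, was at 50.2, 40.7 and 40.4 CPM in the Treg and 1.23, 2.38 and 0.689 CPM in the Tcon libraries (difference 4.17), with every Tcon library below 3 CPM. Neb, the gene of the muscle filament protein nebulin, was at 113, 166 and 111 CPM in the Treg and 3.59, 8.53 and 6.48 CPM in the Tcon libraries (difference 4.14). Cd83, an activation marker of lymphocytes and dendritic cells, was at 124, 124 and 111 CPM in the Treg and 5.51, 7.71 and 3.97 CPM in the Tcon libraries (difference 4.12). Nrp1, the semaphorin receptor neuropilin-1 and a marker of Treg of thymic origin, was at 369, 381 and 400.4 CPM in the Treg and 18.8, 28.2 and 14.8 CPM in the Tcon libraries (difference 4.11). The other 3 of the 12 largest were Naip5, an inflammasome sensor (3.88, with near-identical copies that can share reads), Tnfrsf4, the receptor OX40 (3.83), and Ikzf4, the Ikaros factor Eos (3.82). None of the 12 overlapped between cell types, where 34.2% of all genes were higher without overlap. Choosing the largest differences makes this likely. Each had the same sign in 3 of 3 pairs, which the rule for naming them required.

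In the other direction the largest difference was in Ggt5, a gamma-glutamyl transferase that acts on leukotrienes and glutathione. It was at 1.85, 2.29 and 2.64 CPM in the Treg and 46.4, 51.5 and 49.9 CPM in the Tcon libraries, 16.2-fold lower in Treg (difference -4.01, -4.18 to -3.85, limma adjusted p = 3.33e-14). Atp8b4, a phospholipid-transporting ATPase, was at 2.09, 3.17 and 3.71 CPM in the Treg and 53.6, 55.02 and 55.9 CPM in the Tcon libraries (difference -3.89). Pde3b, a cyclic nucleotide phosphodiesterase repressed by FOXP3, was at 15.6, 14.1 and 18.1 CPM in the Treg and 273, 198 and 229.9 CPM in the Tcon libraries (difference -3.87, 14.6-fold lower in Treg). Tcon libraries held at least 198 CPM of Pde3b and Treg libraries at most 18.1 CPM. Vipr1, a receptor for vasoactive intestinal peptide, was at 19.4, 20.9 and 28.99 CPM in the Treg and 266, 257 and 293 CPM in the Tcon libraries (difference -3.60). Dapl1, a gene of naive T cells whose start is printed above, was at 4.62, 3.67 and 5.11 CPM in the Treg and 64.2, 55.2 and 55.3 CPM in the Tcon libraries (difference -3.52). Igfbp4, which binds insulin-like growth factors and marks naive T cells, was at 66.2, 91.3 and 78.5 CPM in the Treg and 546, 666 and 567 CPM in the Tcon libraries (difference -2.99). The remaining 6 of the 12 were Hs3st3b1 (-3.17), App (-3.10), Arhgap29 (-2.93), Myo10 (-2.86), Mctp2 (-2.83) and Tdrp (-2.83), given as log2 differences. Among them Hs3st3b1 is a heparan sulfate sulfotransferase, App the amyloid precursor protein gene and Myo10 an unconventional myosin gene. For all 12 the 3 Treg libraries lay below the 3 Tcon libraries, as the choice of the largest differences makes likely (34.2% of all genes did).

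**Figure D2:**
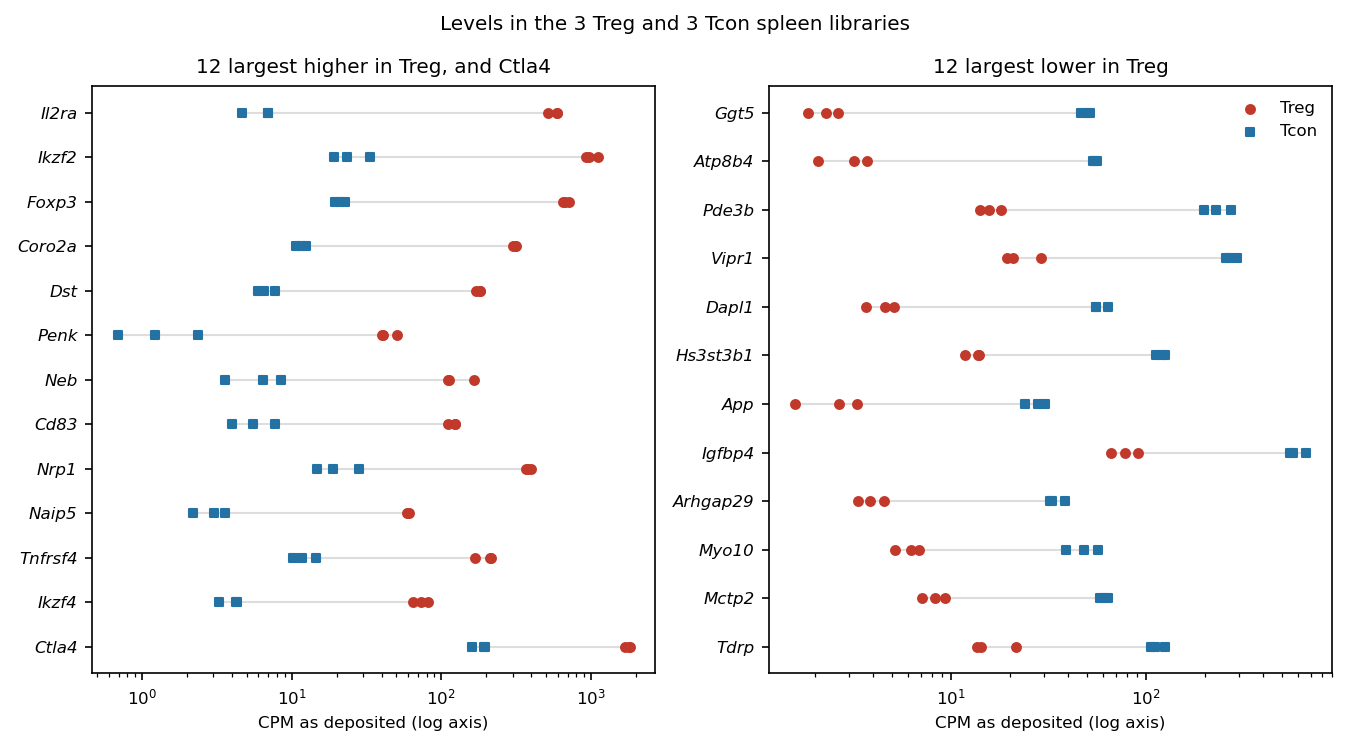
CPM as deposited (horizontal log axis) of each of the 3 spleen Treg (red circles) and 3 spleen Tcon libraries (blue squares) for the 12 called genes with the largest higher and the 12 with the largest lower difference, and Ctla4. Points of the 2 cell types do not overlap in any of these genes, and within a gene the libraries of 1 cell type lie close together compared with the gap.

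Of 34 Treg core genes, 30 were in both tables: 29 were higher in Treg, 0 were lower and 1 was not called, against 35.1% of all genes higher. Their median difference was 3.07, against 0.00075 over all genes, and 27 passed 2-fold (5.54% of all genes did). These counts include Foxp3 and Il2ra, which define the cells and are not findings. This list and those below were chosen with earlier results of these data known. Their shares beside those of all genes are thus descriptions and not an independent test. Foxp3 also counts among the transcription factors and Il2ra among the cytokine receptors below. Beyond the genes above, the receptors Tnfrsf9 (4-1BB), Tnfrsf18 (GITR) and Tnfrsf1b (TNFR2), which take signals from TNF family ligands, differed by 3.72, 2.17 and 2.29. Il2rb, the beta chain of the interleukin-2 receptor, was at 991, 1047 and 987 CPM in the Treg and 127, 105 and 112 CPM in the Tcon libraries (difference 3.04). Gpr83, an orphan receptor, was at 77.7, 78.96 and 79.9 CPM in the Treg and 6.07, 6.18 and 6.29 CPM in the Tcon libraries (difference 3.39). Tigit, an inhibitory receptor, and Izumo1r, which encodes folate receptor 4, differed by 2.85 and 2.37. Icos, a costimulatory receptor, was at 226, 265 and 212 CPM in the Treg and 222, 189.6 and 175 CPM in the Tcon libraries, with overlapping ranges, and its small difference of 0.17 lost its call without pair 5, without the block or with quantile normalization. Ikbke, an inflammatory kinase, was the member not called (0.01, 95% interval -0.09 to 0.10). Lrrc32, Itgb8 and Ebi3 of the list were in the Treg table only, and values of the first pair are given apart.

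Genes of naive T cells and genes repressed by FOXP3 went the other way. Of 26 members in both tables, 21 were lower in Treg (background 35.0%), 2 higher and 3 not called, with a median of -1.22 and 14 past 2-fold lower (1.88% of all genes were). Tcf7, which encodes TCF1, was at 676, 639.8 and 661 CPM in the Treg and 1838, 1829 and 1727 CPM in the Tcon libraries (difference -1.54). Lef1, its partner factor, was at 148, 139 and 168 CPM in the Treg and 407, 389 and 443 CPM in the Tcon libraries (difference -1.53). The chromatin organizer Satb1 and the interleukin-7 receptor Il7r differed by -1.26 and -1.33. Ccr7, which guides T cells into lymphoid tissue, was at 284, 224 and 287 CPM in the Treg and 732, 637 and 765 CPM in the Tcon libraries (difference -1.52), and S1pr1, which guides their exit, differed by -1.35. Themis, a regulator of T cell receptor signals, was at 62.3, 57.5 and 62.3 CPM in the Treg and 283, 255 and 265 CPM in the Tcon libraries (difference -2.21), and Tgfbr3, a TGF-beta co-receptor, differed by -2.57. Id3, an inhibitor of E protein factors, and Il6st, a signalling chain of the interleukin-6 receptor, were the 2 members higher in Treg (0.57 and 0.21).

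Effector Treg genes, which mark activated Treg, were mostly higher: 21 of 22 in both tables were higher, 1 was lower and 0 were not called. These are 95.5% and 4.55%, against 35.1% and 35.0% of all genes. The median was 1.14, and 11 were past 2-fold higher, where 5.54% of all genes were. Ahnak, a large scaffold protein gene, was at 2569.5, 2487 and 2803 CPM in the Treg and 293, 268 and 305 CPM in the Tcon libraries (difference 3.09, limma adjusted p = 6.35e-15). Fgl2, a secreted suppressive molecule, was at 28.2, 26.04 and 18.7 CPM in the Treg and 3.85, 2.15 and 2.24 CPM in the Tcon libraries (difference 2.68). The calcium-binding genes S100a4 and S100a6 differed by 2.60 and 2.46, and the transcription factors Maf and Prdm1 (BLIMP1) by 1.92 and 1.42. Irf4, a factor that effector Treg need, was the 1 member lower in Treg (-0.22), at 148, 148 and 129 CPM in the Treg and 191, 170.0 and 115 CPM in the Tcon libraries. Its ranges overlapped, and it lost its call without pair 4, without pair 5, without the block or without rescaling.

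Receptors of the CD28 family and related inhibitory receptors divided by member. Of 15 in both tables, 10 were higher in Treg, 4 lower and 1 not called (median 0.31). The shares were 66.7% higher and 26.7% lower, against 35.1% and 35.0% of all genes. Pdcd1, the gene of PD-1, was at 38.2, 45.9 and 31.1 CPM in the Treg and 5.17, 11.9 and 3.64 CPM in the Tcon libraries (difference 2.36), and Lag3, which binds MHC class II, at 29.99, 56.9 and 22.03 CPM in the Treg and 4.96, 10.5 and 3.32 CPM in the Tcon libraries (difference 2.29). In both genes pair 5 was the highest pair in both cell types. Cd101 and Cd200 differed by 1.58 and 1.51, while the costimulatory receptor Cd28, at 859.9, 888 and 953 CPM in the Treg and 1034, 1052 and 1170.2 CPM in the Tcon libraries, was lower in Treg (-0.36). Of 22 TNF receptors, ligands and adaptors, 14 were higher and 5 lower (63.6% and 22.7%, against 35.1% and 35.0% of all genes), with a median of 0.55. The ligand Lta, lymphotoxin alpha, was higher (1.43), and Cd40lg, the helper ligand of CD40, was lower at 22.8, 26.4 and 27.4 CPM in the Treg and 94.8, 101 and 99.3 CPM in the Tcon libraries (difference -1.99). Tnfrsf1a, the death-domain TNF receptor, was lower (-0.83) where Tnfrsf1b was higher.

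Cytokine receptors went both ways: of 21 in both tables, 10 were higher in Treg (47.6%, against 35.1% of all genes) and 9 lower (42.9%, against 35.0%). Their median of 0.04 had no stable sign, at 0.18 without pair 4, -0.06 without pair 5, 0.09 without pair 6 and 0.12 without rescaling. Higher were Il12rb1, shared by the interleukin-12 and interleukin-23 receptors (2.30), both chains of the interleukin-10 receptor, Il10ra (1.83) and Il10rb (0.92), and the TGF-beta receptor Tgfbr1 (1.01). Lower were Il7r and Tgfbr3, given above, Ifngr2 (-1.44), Tgfbr2 (-0.95) and Il4ra (-0.78). The chains of the receptors for interferon gamma and TGF-beta differed in direction. Ifngr1, the binding chain for interferon gamma, was at 316, 306 and 334 CPM in the Treg and 228, 209.5 and 213 CPM in the Tcon libraries (difference 0.46) while Ifngr2, its signalling chain, was at 55.3, 48.5 and 57.2 CPM in the Treg and 146, 133 and 137 CPM in the Tcon libraries. For TGF-beta, Tgfbr1 was at 191, 182 and 158 CPM in the Treg and 80.03, 83.2 and 83.5 CPM in the Tcon libraries and Tgfbr2 at 317, 283 and 318 CPM in the Treg and 564, 535 and 567 CPM in the Tcon libraries. Il2rg, the gamma chain shared by receptors for interleukins 2 and 7, was not called (-0.05, -0.14 to 0.04).

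Downstream of these receptors, 15 of 19 JAK, STAT and feedback genes were higher and 2 lower (78.9% and 10.5%, against 35.1% and 35.0% of all genes), with a median of 0.43. Cish, a feedback inhibitor induced through STAT5, was at 175, 167 and 150.4 CPM in the Treg and 13.3, 13.9 and 13.8 CPM in the Tcon libraries, 10.6-fold higher in Treg (difference 3.40, limma adjusted p = 7.75e-15). Socs2, another inhibitor of the pathway, was at 29.3, 32.5 and 25.4 CPM in the Treg and 3.73, 2.54 and 3.30 CPM in the Tcon libraries (difference 2.76). The kinases Jak3 and Pim1 differed by 1.12 and 1.36, and Stat5a and Stat5b by 0.43 and 0.53. Jak1 (-0.32) and the kinase Pim2 (-0.97) were lower in Treg.

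Among 49 transcription factor genes of T cells, 29 were higher in Treg (59.2%, against 35.1% of all genes) and 16 lower (32.7%, near the 35.0% of all genes). Their median was 0.41, and 0.27 without pair 4. Members of the Ikaros family differed in direction, with Ikzf2 and Ikzf4 given above, Ikzf3 (Aiolos) at 1.22, and Ikzf1 (Ikaros) lower at 570.4, 584 and 609.9 CPM in the Treg and 1095, 1180.4 and 1173 CPM in the Tcon libraries (difference -1.05). Of the Runx factors, Runx2 was at 30.9, 27.1 and 25.7 CPM in the Treg and 5.77, 4.30 and 4.51 CPM in the Tcon libraries (difference 2.22), Runx1 was not called (0.08, -0.01 to 0.17) and Runx3 was lower (-0.71). The NF-kB genes Rel, Nfkb2, Relb and Nfkb1 were higher (1.52, 0.97, 0.77 and 0.71). Rel, which encodes c-Rel, a factor needed for Treg development, was at 302, 292 and 243 CPM in the Treg and 83.2, 93.99 and 93.9 CPM in the Tcon libraries. The ligand-activated Ahr and the helper factor Gata3 differed by 1.90 and 0.93. Id2, Tbx21 (T-bet) and Eomes were lower in Treg (-1.15, -1.01 and -1.04). Eomes also counts among the CD8 and natural killer markers, whose sum was 108 to 138 CPM in Tcon and 41.9 to 43.0 CPM in Treg, and the part of such cells was not tested. Foxo1, which controls Tcf7 and Il7r among others, was not called (-0.04, -0.14 to 0.05), and Foxp1, a relative of Foxp3, was lower (-0.45).

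Genes that direct where T cells go, mostly receptors but with the chemokine gene Ccl5 counted too, parted as well. Of 23, 14 were higher and 6 lower (60.9% and 26.1%, against 35.1% and 35.0% of all genes), with a median of 0.35. The chemokine receptor Ccr8 was at 54.03, 47.1 and 36.5 CPM in the Treg and 3.02, 2.20 and 2.13 CPM in the Tcon libraries (difference 3.67), and Ccr4, which like Ccr8 marks effector Treg, was at 56.7, 59.05 and 52.7 CPM in the Treg and 5.48, 3.92 and 4.18 CPM in the Tcon libraries (difference 3.29). Cxcr5, which leads cells to B cell follicles, was at 62.8, 69.7 and 56.9 CPM in the Treg and 13.4, 12.6 and 8.13 CPM in the Tcon libraries (difference 2.31). Gpr183, an oxysterol receptor of follicle borders, was lower in Treg at 112, 115 and 119.6 CPM in the Treg and 295, 311 and 333 CPM in the Tcon libraries (difference -1.51). The lowest member was Cxcr6, a receptor of memory and innate-like T cells, at 4.08, 3.10 and 3.15 CPM in the Treg and 38.4, 19.1 and 23.9 CPM in the Tcon libraries (difference -2.68). The level of Cxcr6 in Tcon of pair 4 was above that of pairs 5 and 6, but even the lowest Tcon library was above every Treg library.

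Of 36 genes of the T cell receptor complex and its proximal signalling, 11 were higher (30.6%, near the 35.1% of all genes), 17 lower (47.2%, against 35.0%) and 8 not called. Their median of -0.07 turned to 0.02 without rescaling and was -0.03 with quantile normalization. The E3 ligase Cbl, which attenuates receptor signals, was at 349, 333 and 323 CPM in the Treg and 142, 145 and 159.9 CPM in the Tcon libraries (difference 1.08). Cd4, Cd247 and Lat were lower (-0.51, -0.48 and -0.39). Genes that respond to receptor triggering were mostly higher: 23 of 29 were higher and 4 lower (79.3% and 13.8%, against 35.1% and 35.0% of all genes), with a median of 0.70. Dusp4, a phosphatase that dampens ERK, was at 312, 299 and 286 CPM in the Treg and 28.02, 35.8 and 32.5 CPM in the Tcon libraries (difference 3.10). Fos, an AP-1 subunit, was at 854, 1018 and 1196 CPM in the Treg and 196, 349.6 and 409 CPM in the Tcon libraries (difference 1.65). Bhlhe40 and Nr4a2 differed by 1.97 and 1.61, and Nr4a1, an immediate early gene, by 0.51. Dusp10, a phosphatase of stress kinases, was lower at 459.6, 365 and 448 CPM in the Treg and 1032, 1232 and 1344 CPM in the Tcon libraries (difference -1.59), as was Fosl2, an AP-1 subunit (-1.39). In Tcon, pair 4 had the lowest Fos, Fosl2, Nr4a1 and Dusp10 of the 3 pairs.

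Enzymes and receptors for extracellular nucleotides were mostly higher, with 10 of 12 higher and 1 lower (83.3% and 8.33%, against 35.1% and 35.0% of all genes) and a median of 1.30. Entpd1 (CD39), which degrades ATP, was at 36.9, 37.4 and 37.3 CPM in the Treg and 3.64, 2.97 and 2.95 CPM in the Tcon libraries (difference 3.11). Nt5e (CD73), which makes adenosine, was at 313, 365 and 302 CPM in the Treg and 45.1, 52.6 and 41.6 CPM in the Tcon libraries (difference 2.70). The ATP-gated channel P2rx7, the NAD hydrolase Cd38 and the adenosine receptor Adora2a differed by 2.27, 2.25 and 1.39. Of 31 cell cycle genes in both tables, 21 were higher and 6 lower (67.7% and 19.4%, against 35.1% and 35.0% of all genes), and 9 more were listed in Treg only. Their median was 0.65, and 0.41 with quantile normalization. Mki67, a marker of cycling cells, was at 120.5, 126 and 147 CPM in the Treg and 22.9, 19.6 and 42.02 CPM in the Tcon libraries (difference 2.16), highest in pair 6 of both cell types. Cdk6 and Top2a differed by 2.05 and 1.16, while Stmn1 and Pcna were lower in Treg (-0.97 and -0.67). Of 25 apoptosis genes, 19 were higher and 3 lower (76.0% and 12.0%, against 35.1% and 35.0% of all genes), with a median of 0.38. Both protective Bcl2l1 (1.25) and the killing gene Pmaip1 (1.86) were among the higher ones, and Mcl1 and Bcl2l11 among the lower ones (-0.38 and -0.38).

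Of 32 genes of glycolysis and lipid metabolism, 12 were higher and 12 lower, 37.5% each way, which is near the 35.1% and 35.0% of all genes. Their median of 0.0040 had no stable sign, at -0.03 without pair 4, 0.02 without pair 5, 0.09 without rescaling and -0.02 with quantile normalization. Hexokinase 2 (Hk2) and the lactate exporter Slc16a3 were higher (1.60 and 1.58), as was the glucose transporter Slc2a3 at 170.0, 176 and 180.5 CPM in the Treg and 64.7, 67.5 and 75.4 CPM in the Tcon libraries (difference 1.24). The fatty acid oxidation gene Acadm and the sterol synthesis gene Idi1 were lower (-0.68 and -0.55).

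Genes of the cytosolic ribosome were lower in Treg almost throughout: of 43 members found in both tables, 42 were lower and 1 higher (97.7% and 2.33%, against 35.0% and 35.1% of all genes). The median was -0.76, and 5 were past 2-fold lower, where 1.88% of all genes were. Rps24 was at 927, 842 and 899 CPM in the Treg and 1697, 1935 and 1782 CPM in the Tcon libraries (difference -1.11, -1.24 to -0.97), and Rpl5 at 1337, 1327 and 1379 CPM in the Treg and 2512, 2722 and 2720.4 CPM in the Tcon libraries (difference -1.06). Rpl13 was the 1 member higher in Treg, at 189, 234 and 182 CPM in the Treg and 145, 164 and 163 CPM in the Tcon libraries (difference 0.26). In all 3 genes the cell types did not overlap. The split was 42 lower and 1 higher without rescaling too, and 41 lower and 1 higher with quantile normalization. Ribosomal protein genes have many processed pseudogenes that can share reads, so single members are less certain.

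Interferon response genes were mixed, with 15 of 32 higher (46.9%, against 35.1% of all genes), 7 lower (21.9%, against 35.0%) and 10 not called. Without rescaling 21 were higher and 5 lower. The median was 0.08, with 0.14 without pair 4 and 0.17 without rescaling. Iigp1 and Gbp7, interferon-induced GTPases, were higher (1.28 and 1.13), and Oas2, an RNA sensor, was lower at 9.72, 13.5 and 9.19 CPM in the Treg and 28.6, 32.1 and 25.9 CPM in the Tcon libraries (difference -1.43). Of the 8 GIMAP genes, GTPases that support lymphocyte survival, 4 were higher and 3 lower (50% and 37.5%, against 35.1% and 35.0% of all genes). Their median was 0.14, and 0.23 without rescaling or with quantile normalization. They ran from Gimap7 at 0.74 to Gimap6, at 1115, 1027 and 1056 CPM in the Treg and 2059, 1876 and 1792 CPM in the Tcon libraries, at -0.93.

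**Figure D3:**
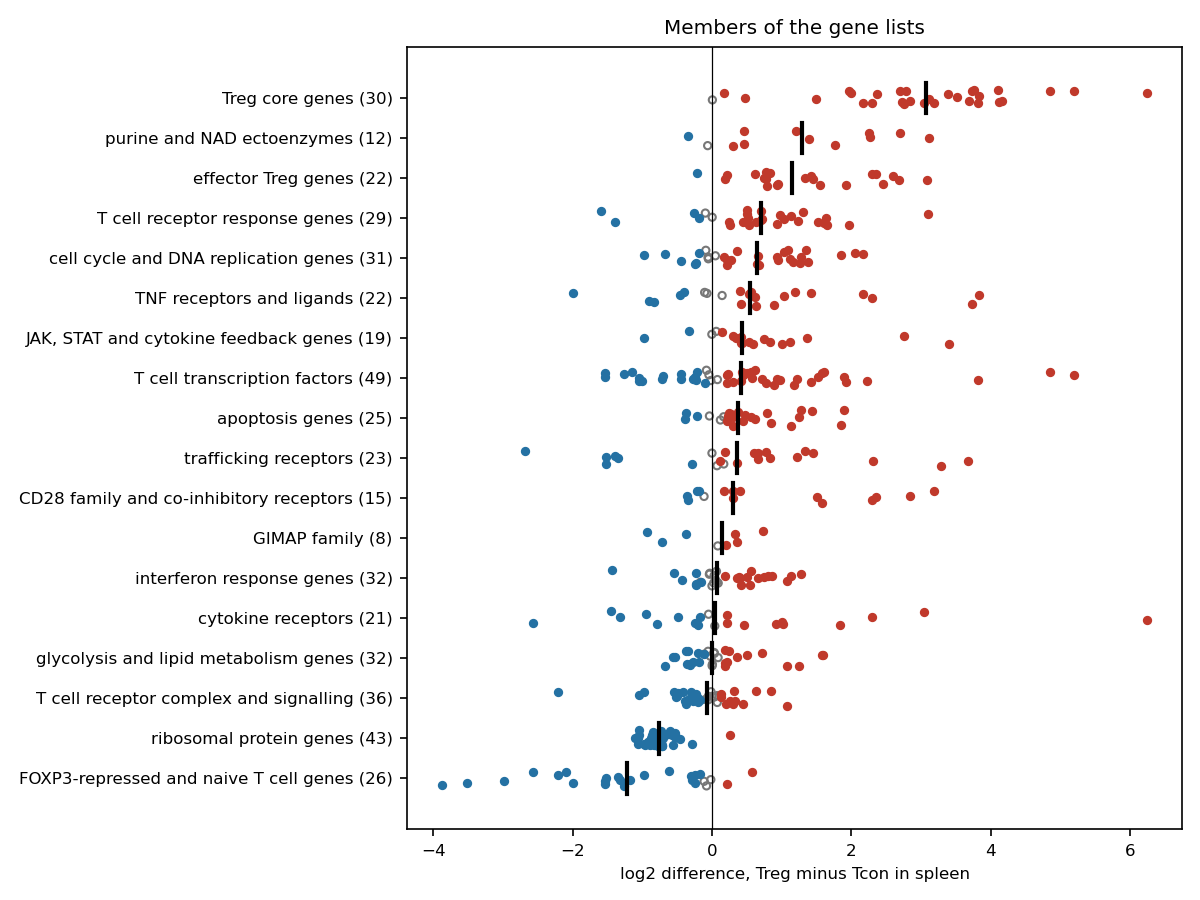
Log2 difference between spleen Treg and Tcon (horizontal axis) for the members of 18 gene lists, 1 point each, with the number of members in both tables in brackets; red and blue points were called higher and lower, open points were not called, and black bars are medians. The Treg core list has the highest median (3.07) and the list of FOXP3-repressed and naive genes the lowest (-1.22), and all ribosomal members but Rpl13 lie below 0.

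Genes listed for 1 cell type only could not be tested, because the other table gives no value for them. The Treg table alone lists 621 genes, 83 of them with a spleen mean of at least 10 CPM, and the Tcon table alone lists 102 genes, 9 of them at that level. Every listed gene reached 1 CPM in at least 3 libraries of its own table. The highest in Treg was Lrrc32 (GARP), which holds latent TGF-beta at the Treg surface, at 427, 451 and 479 CPM. The laminin gene Lamc1 was at 99.04, 96.97 and 90.7 CPM, the titin gene Ttn at 63.7, 92.9 and 62.7 CPM and the myosin gene Myo1e at 77.3, 74.3 and 66.03 CPM. Itgae, the integrin chain CD103, was at 52.5, 68.1 and 77.3 CPM, and Il10, the suppressive cytokine interleukin-10, at 51.5, 52.1 and 36.8 CPM. Naip6, which has near-identical copies, and Rgs9 completed the 8 highest. List members found in Treg only included the growth factor Areg (28.6, 27.8 and 22.2 CPM), the integrin chain Itgb8 (31.7, 37.04 and 26.3 CPM), the inhibitory receptor Klrg1 (34.1, 17.4 and 24.5 CPM) and the chemokine receptor Ccr6 (24.4, 23.6 and 22.9 CPM). Of the 8 highest in Tcon only, Pdlim4 led at 43.5, 35.1 and 45.6 CPM, ahead of Lypd6b at 27.9, 27.4 and 29.9 CPM. The natural killer receptor Klrd1 was at 20.5, 13.7 and 12.7 CPM and the chemokine Xcl1 at 17.2, 9.40 and 13.04 CPM.

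The same comparison in the 6 lymph node libraries served to show what differed in spleen. There 7222 genes were called (73.8%), with 608 over 2-fold higher in Treg (6.21%) and 230 over 2-fold lower (2.35%). Of the 726 genes past 2-fold in spleen, 721 had the same sign, and no same-sign share over all genes was taken. The difference between organs was tested in 1 model of all 12 libraries. It called 450 of 9784 genes (4.60%), 228 with a higher Treg minus Tcon difference in spleen (2.33%) and 222 with a lower one (2.27%). Without the block for library number the count was 102, of which 21 were higher and 81 lower. It was 199 without lymph node pair 3 and 205 without spleen pair 5. Past 2-fold, 37 genes had a lower difference in spleen (0.378%) and 5 a higher one (0.0511%), and 33 of the 37 were also called without the block. With the block, the test called 156 of the 726 genes past 2-fold in spleen.

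The genes with a lower difference in spleen were mostly genes whose level in Tcon was higher in spleen than in lymph node. This held for 36 of the 37, and in 34 of them the organs differed more in Tcon than in Treg, on the log2(CPM + 1) scale and without a test. In 21 of the 37 the Treg level was higher in spleen too. Choosing genes with a lower difference in spleen itself favours higher Tcon levels there, and no share over all genes was taken. Nkg7, a granule protein gene of natural killer and cytotoxic T cells, was the extreme case. In spleen it was at 9.62, 12.03 and 11.4 CPM in the Treg and 21.2, 14.8 and 16.3 CPM in the Tcon libraries, and in lymph node at 18.3, 22.4 and 19.4 CPM in the Treg and 1.36, 2.09 and 1.07 CPM in the Tcon libraries. Its difference was therefore -0.69 in spleen and 3.0 in lymph node, and the gap of -3.69 (95% interval -4.05 to -3.32) had a limma adjusted p = 1.7e-08. Cxcr6 was given above for spleen and stood at 3.03, 4.18 and 3.73 CPM in the Treg and 3.49, 2.89 and 2.63 CPM in the Tcon libraries in lymph node (gap -2.82, -3.21 to -2.43). Klrb1c, the natural killer receptor NK1.1, was at 3.38, 3.91 and 3.51 CPM in the Treg and 23.6, 10.9 and 13.4 CPM in the Tcon libraries in spleen and at 1.32, 1.44 and 1.08 CPM in the Treg and 0.48, 0.664 and 0.332 CPM in the Tcon libraries in lymph node (gap -2.45). The chemokine gene Ccl5 was at 8.41, 7.41 and 8.44 CPM in the Treg and 23.7, 21.3 and 20.1 CPM in the Tcon libraries in spleen and at 2.59, 3.0 and 2.38 CPM in the Treg and 0.4, 2.18 and 0.766 CPM in the Tcon libraries in lymph node (gap -2.21). Ccr2, a receptor for inflammatory chemokines, remained higher in Treg in both organs (1.44 in spleen and 3.72 in lymph node), with Tcon at 14.2, 7.76 and 8.94 CPM in spleen. Tbx21 differed by -1.01 in spleen and 0.77 in lymph node (gap -1.78).

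Coro2a and some Treg core genes were in the same set. Socs2 was at 29.3, 32.5 and 25.4 CPM in the Treg and 3.73, 2.54 and 3.30 CPM in the Tcon libraries in spleen and at 42.3, 43.99 and 49.04 CPM in the Treg and 0.187, 0.166 and 0.281 CPM in the Tcon libraries in lymph node, so its difference was 5.16 in lymph node and 2.76 in spleen (gap -2.40, limma adjusted p = 2.25e-07). Coro2a in Tcon was at 11.6, 10.7 and 12.5 CPM in spleen and 1.79, 2.94 and 1.99 CPM in lymph node, while the lowest Treg library of either organ held 303 CPM (gap -2.08). The gap was -1.54 for Il2rb and -1.61 for Entpd1. Of the 4 Treg markers, Il2ra (gap -0.874) and Ikzf2 (-0.653) were called lower in spleen. Foxp3 (4.86 in spleen, 4.76 in lymph node) and Ctla4 (3.18 and 3.12) were not called in this test. Of the 30 Treg core genes in both tables, it called 13 lower and 2 higher in spleen, where 2.27% and 2.33% of all genes were. Beside these values, the summed CD8 and natural killer markers of the whole list were 42.0 to 48.9 CPM in lymph node Tcon, against 108 to 138 CPM in spleen Tcon. That sum counts Nkg7, Klrb1c and Ccl5, which were named above because the organ test called them. It is thus not separate from their values. Klrd1 and Klrk1 were listed in Tcon only and Cd8a, Ncr1 and Gzma in neither table. The part of such cells in these differences was not tested.

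**Figure D4:**
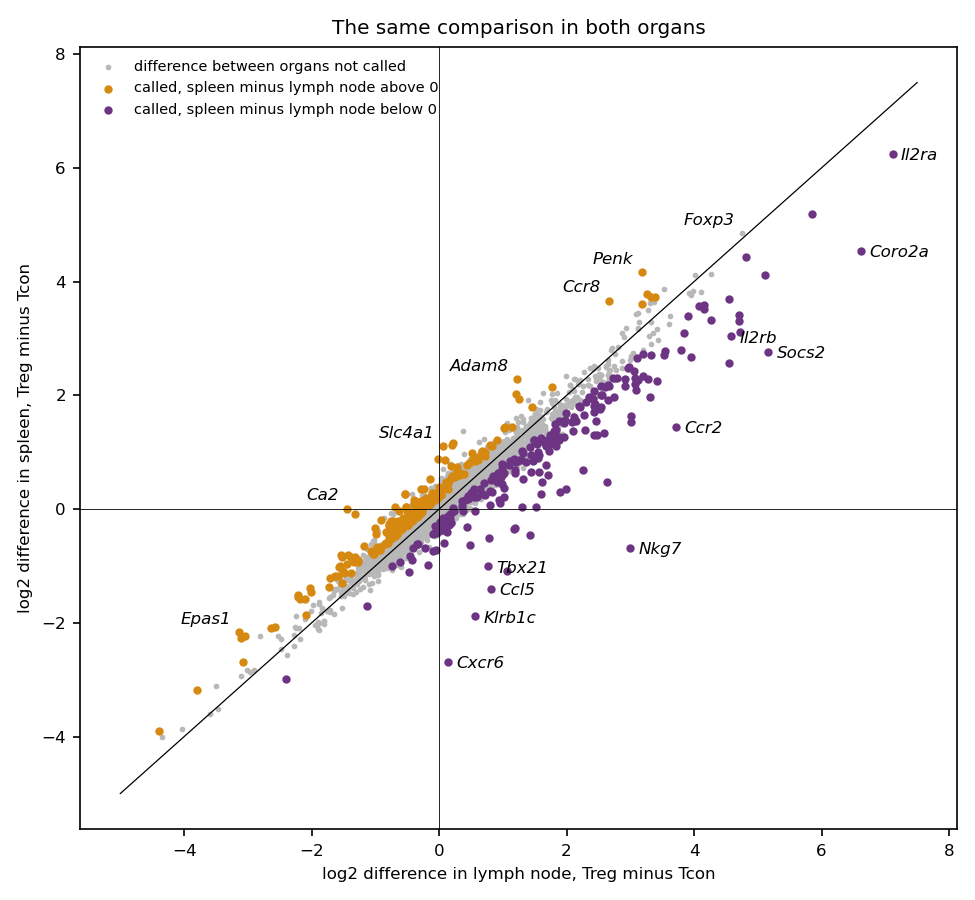
Log2 difference between Treg and Tcon in spleen (vertical axis) against that in lymph node (horizontal axis) for 9784 genes, 1 point each, with the line of equality; orange and purple points are the 228 and 222 genes whose difference was called higher and lower in spleen. Nkg7, Klrb1c, Ccl5 and Tbx21 lie at positive lymph node and negative spleen values.

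Fewer genes stood out with a higher difference in spleen, and those described here had a mean of at least 10 CPM in 1 of the 4 groups of cell type and organ. Ccr8 differed by 3.67 in spleen and 2.67 in lymph node (gap 1.00, 0.77 to 1.23), with Tcon at 3.02, 2.20 and 2.13 CPM in spleen and 6.21, 7.90 and 8.73 CPM in lymph node. Epas1, a hypoxia-inducible factor gene, was lower in Treg by less in spleen (-2.16) than in lymph node (-3.14). Adam8, a membrane protease gene, differed by 2.28 and 1.23, and Penk by 4.17 and 3.18. Slc4a1, the anion exchanger of red cells, was at 12.1, 8.41 and 109.7 CPM in the Treg and 4.21, 3.38 and 50 CPM in the Tcon libraries in spleen and below 0.1 CPM in every lymph node library. Its spleen difference of 1.10 was lost without the block (limma adjusted p = 0.375), and the ranges of the cell types overlapped. Ca2, a carbonic anhydrase gene also called Car2 that red cells express and that the red cell sums do not count, was at 7.95, 7.38 and 38.2 CPM in the Treg and 8.91, 7.05 and 29.6 CPM in the Tcon libraries in spleen and at 0.904, 1.15 and 1.33 CPM in the Treg and 4.24, 4.84 and 4.65 CPM in the Tcon libraries in lymph node. In both genes pair 6 was far above pairs 4 and 5 in both cell types, as in the red cell sums above. Without the block for library number, Ccr8 and Epas1 kept their call, while Adam8, Penk, Slc4a1 and Ca2 had adjusted p = 0.0856, adjusted p = 0.16, adjusted p = 0.836 and adjusted p = 0.509 with limma. The part of red cells in the last 2 was not tested.

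**Figure D5:**
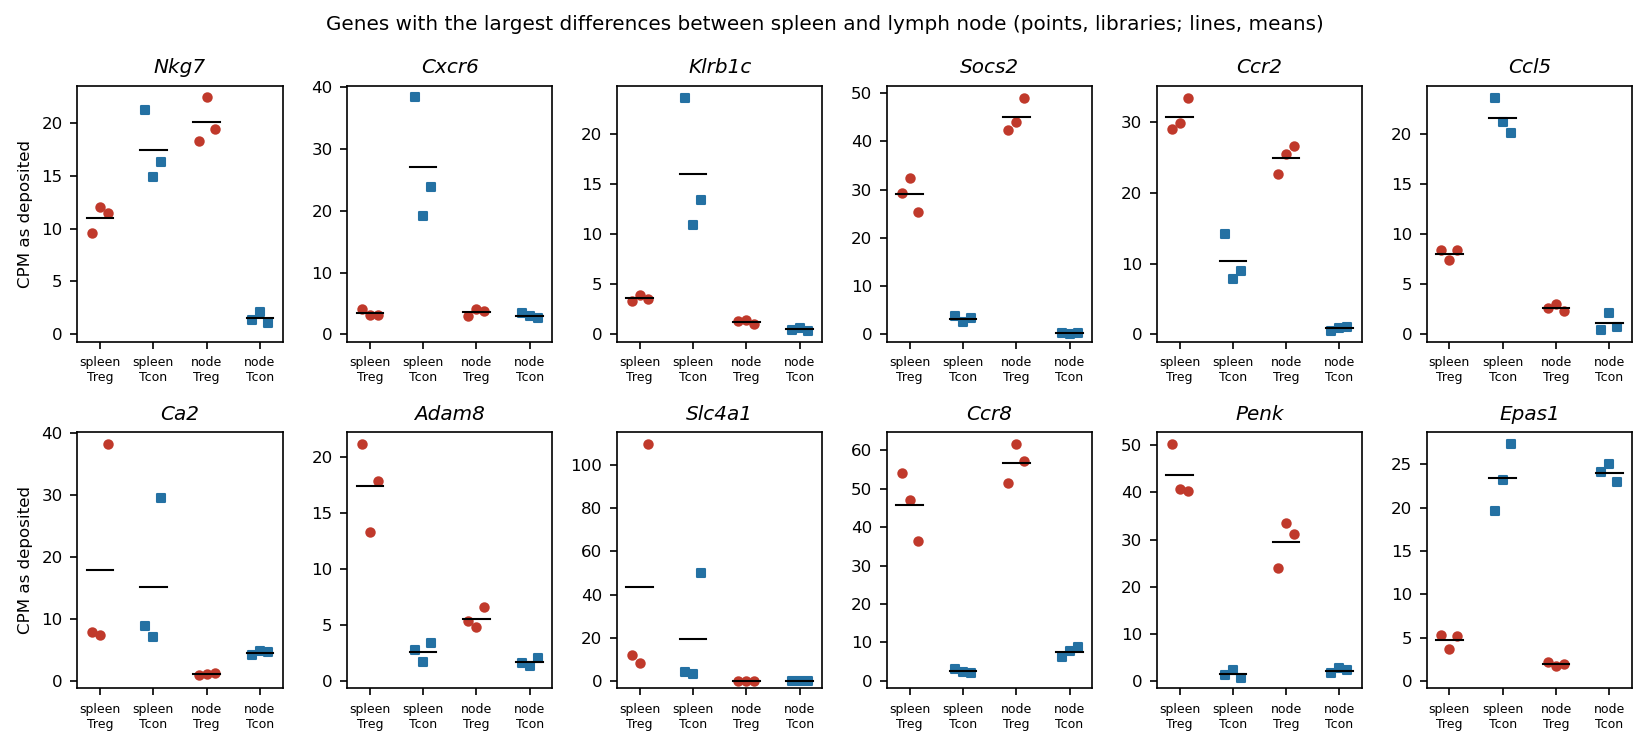
CPM as deposited (vertical axis) in the 12 libraries for the 6 genes with the lowest and the 6 with the highest called difference between spleen and lymph node, among genes with a mean of at least 10 CPM in 1 of the 4 groups; points are libraries, in the order of their numbers, and lines are means of 3. In the upper row the spleen Tcon libraries lie above the lymph node Tcon libraries in each gene.

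The treatment of a pair cannot be told apart from the pair itself, since only pair 4 had vehicle. Set side by side with no test, the difference of Foxp3 was 4.93 in the vehicle pair and 4.80 and 4.83 in the SAH pairs. It was 6.13, 6.63 and 5.95 for Il2ra, and 3.12, 3.12 and 3.30 for Ctla4. The vehicle pair alone put 748 genes past 2-fold and the mean of the SAH pairs 721. Over all genes, the vehicle pair and the mean of the SAH pairs differed by a median of 0.091 in absolute log2 value, and 7 genes differed by more than 1 log2 unit. Klrb1c was one of these, at -2.56 in the vehicle pair and -1.35 and -1.75 in the SAH pairs. The plasma cell gene Jchain was another, at -0.01, 0.87 and 1.51.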

How the data were processed

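RNA was sequenced in 12 libraries, 6 of them from spleen. TopHat, Bowtie, edgeR and the build mm10 are named in the submitters' processing notes, with no versions. Annotation and counter: not given in the sources used here. Deposited was 1 table per cell type. Its normalized signal for each gene in each library is CPM per the file headers. Column totals ran from 971928 to 1.02143e+06. The deposited log2 values (fold change and mean level), p-values (with false discovery rate) and scores (likelihood ratio and call) belong to the authors' test of peptide against vehicle, per the file headers, and were not used. Depth was estimated from the steps between low values: with 1 read taken as the fitted step, 100% of values under 300 reads lay within 0.1 of a whole number. The lowest listed values were not always 1 read, so the values were not treated as counts and the totals are estimates. They were 39422163 to 48888678 reads in listed genes of the spleen libraries, so that 1 read was worth 0.0209 to 0.0256 CPM.

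On log2(CPM + 1), limma 3.58.1 in R 4.3.3 was fitted to the 9784 genes listed in both tables (two-sided, with a trend on mean level), after division of the Treg values by the median Treg to Tcon ratio, 1.0632 in spleen and 1.0635 in lymph node. Library number was a block, with 2 residual degrees of freedom in spleen and 4 in the model of 12 libraries. Same-numbered libraries resembled each other: deviations from the group means correlated at 0.428, 0.458 and 0.557 between same-numbered spleen libraries and at 0.419, 0.424 and 0.441 in lymph node. Correlations between all others were negative. Each group was centred on its own mean, so positive values for same numbers favour negative ones elsewhere. A shared number is also a shared treatment, and the part of treatment was not tested. The block also takes up peptide effects shared by both cell types. Intervals are 95% intervals of the model. They rest on the spread left after the block, which leaves out what the libraries of a pair share. Limma also borrows spread from other genes, with a median of 11.2 prior degrees of freedom in spleen against the 2 residual ones. Fold changes on this scale understate the change of genes with few reads. The fit was checked on simulated data in which few genes changed, equally many each way. These data differ in most genes, so that check does not cover the rescaling used here. Named genes were the 4 markers, the 12 largest called differences each way among genes of at least 10 CPM in the higher cell type with 1 sign in 3 of 3 pairs, members of the lists with at least the 2 largest each way, the 6 largest called differences between organs each way among genes of at least 10 CPM in 1 of the 4 groups, and the 8 highest genes of each table alone. Some items are not reported here. Members and lists were chosen with earlier results of these data known. Coordinates are from GENCODE (9378 of 9784 symbols matched) and promoters from RefSeq. Another pseudocount, scaling, filter, the fit without the block and fits without each pair were tried.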

Additional observations from a re-analysis of the deposited data

Results flagged for a closer look

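For 47 of the 145 genes named here, the Treg minus Tcon difference itself differed between spleen and lymph node (limma with the library block, Benjamini-Hochberg adjusted p below 0.05). Over all 9784 genes the test called 450 (4.60%). Among the 726 genes called past 2-fold in spleen, a set more like the named genes, it called 156. The 6 largest each way were named because this test called them, so the count of 47 is partly built in. Values are the spleen difference minus the lymph node difference in log2 units. The difference was far lower in spleen for Ccl5 (-2.21), Ccr2 (-2.28), Coro2a (-2.08), Cxcr6 (-2.82), Entpd1 (-1.61), Il2rb (-1.54), Klrb1c (-2.45), Nkg7 (-3.69), Socs2 (-2.4) and Tbx21 (-1.78). It was lower for Ahnak (-0.759), Bhlhe40 (-1.33), Cd38 (-1.17), Fgl2 (-1.27), Il12rb1 (-0.777), Il2ra (-0.874), Lag3 (-0.996), Mki67 (-0.76), Nrp1 (-1), P2rx7 (-0.857) and Stmn1 (-0.804). Negative values of smaller size were measured for Bcl2l1 (-0.356), Cd200 (-0.443), Cish (-0.505), Dst (-0.369), Igfbp4 (-0.597), Ikzf2 (-0.653), Ikzf3 (-0.274), Nt5e (-0.625), Tgfbr1 (-0.546) and Top2a (-0.501). The difference was higher in spleen for Adam8 (1.06), Atp8b4 (0.502), Ca2 (1.45), Ccr8 (1), Cd28 (0.243), Dusp10 (0.592), Epas1 (0.977), Fosl2 (0.633), Foxo1 (0.24), Gimap6 (0.346), Gpr183 (0.7), Hs3st3b1 (0.631), Ifngr1 (0.322), Penk (0.986), Slc4a1 (1.04) and Tnfrsf9 (0.338). For genes lower in Treg in both organs, such as Atp8b4, Hs3st3b1, Dusp10, Fosl2 and Gpr183, a positive value is a smaller gap between the cell types in spleen. For Igfbp4 and Stmn1, also lower in Treg in both organs, the negative value is a wider gap in spleen. Nkg7, Cxcr6, Klrb1c, Ccl5 and Tbx21 were lower in Treg in spleen but not in lymph node.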

How the results depend on the processing

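Of 145 genes named for the spleen comparison, 10 changed side of the threshold or sign under any of 10 alternatives, and 1432 refits kept both. Signs turned only in genes not called: Ca2 (between -0.12 and 0.12 without 1 pair, -0.14 with quantile normalization), Foxo1 (0.044 without rescaling, 0.066 with quantile normalization), Ikbke (between -0.032 and 0.042 without 1 pair) and Il2rg (0.039 without rescaling, 0.055 with quantile normalization). Jak1 lost its call with quantile normalization, Jchain and Slc4a1 without the block, and Runx1 was called higher without rescaling. The 6861 calls became 5943 to 6615 without 1 pair and 6102 without the block.

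The comparison of organs was less stable. Its 450 calls became 199 to 420 without 1 pair (75 to 218 higher and 124 to 209 lower), lowest without lymph node pair 3 or spleen pair 5. Past 2-fold, 3 to 10 were higher without 1 pair. Without the block for library number 102 were called, 21 higher and 81 lower, with 2 past 2-fold higher. The cause was not tested. Slc4a1 was not called with a pseudocount of 0.1 (0.71). The planned count tests were not run, because the lowest listed values were not always 1 read and the normalized values were not treated as counts. With 3 libraries per cell type, 1 of them on vehicle, peptide effects and pair effects cannot be told apart.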
